A study of Mus musculus with 9 samples.

Results

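The nuclear genes of the mitochondrial respiratory chain were taken from the deposited tables by their symbols. They comprise every gene whose symbol begins with Nduf, Uqcr or Atp5, or with Cox followed by a digit from 4 to 8, and the genes Sdha, Sdhb, Sdhc and Sdhd. The pattern matched 95 genes, of which 92 had values, out of 18325 genes with values in all. Ndufb4b, Cox7b2 and Cox8c were listed without values. Of the 92 members, 89 passed the filter on low counts and were tested, and Cox6a2, Cox7a1 and Cox8b did not pass it. The members lie on 19 chromosomes.

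The libraries came from 3 groups of 3, all of them lung cells of the mouse sorted as CD45+ neutrophils by their Ly6g level. The Ly6ghigh and Ly6glow libraries were made from the lungs of BALB/c females that carried mammary tumor cells of the mouse line 4T1-LM3, placed in the fat pad, and had reached the macrometastatic stage. The normal lung (NL) libraries were made from Ly6ghigh neutrophils of lungs without a tumor. The study's legend for this sequencing names the BALB/c model beside all 3 groups, and its methods list the purchased BALB/c mice as female. The labels name no deleted gene and no drug for these groups, and by the age in the study's methods the mice were young adults when bought. The study places the macrometastatic stage from the fourth week after injection on. Sorting followed collagenase digestion of the lung, and it is not stated whether a library holds 1 mouse or a pool. The description fields of the NL libraries name the Ly6ghigh group only, so their assignment rests on the titles and treatment fields.

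The respiratory chain sits in the inner mitochondrial membrane. Complexes I and II pass electrons from NADH and succinate to ubiquinone, complex III passes them on to cytochrome c, and complex IV hands them to oxygen. Complexes I, III and IV pump protons, and complex V, the ATP synthase, lets them flow back through its membrane ring and makes ATP in its soluble head. Neutrophils draw most of their ATP from glycolysis and hold few mitochondria, and their precursors in the marrow hold more. Subunits encoded by mitochondrial DNA were looked for under 13 genes, none of which had values in the tables, so they were not analysed here.

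Library totals ran from 15267177 to 17841807 estimated counts. Levels are given as CPM, the count relative to the library size after TMM scaling, with mean ± SD (n = 3 libraries), and levels of different genes are compared only as FPKM, which are per length of transcript. All 8 neutrophil markers were detected, and their summed level was 68756 to 70556 CPM in the Ly6ghigh, 72633 to 74405 CPM in the Ly6glow and 17642 to 17884 CPM in the NL libraries. Epithelial, endothelial and fibroblast markers were higher in NL. The 6 epithelial genes summed to 1029 to 1157 CPM in NL, 79.9 to 85.9 in Ly6ghigh and 77.3 to 82.2 in Ly6glow. The 4 endothelial genes summed to 652 to 697 CPM in NL, 107 to 112 in Ly6ghigh and 132 to 139.8 in Ly6glow. The 4 fibroblast genes summed to 442 to 474 CPM in NL, 37.7 to 43.6 in Ly6ghigh and 39.6 to 43.6 in Ly6glow. No gene of the epithelial, endothelial or fibroblast lists was at 0 in a whole group. The alveolar macrophage list summed to 2023 to 2080.2 CPM in Ly6ghigh, 891 to 916 in Ly6glow and 2583 to 2604 in NL. Neutrophils may express some of its genes too, and their part in these sums was not tested. The sums are therefore no measure of macrophage RNA alone. The monocyte and macrophage list summed to 667 to 671 CPM in Ly6ghigh, 626 to 646 in Ly6glow and 991 to 1062 in NL. Lists of eosinophils, basophils and mast cells, of T, B and NK cells and of erythroid cells reached at most 124 CPM in a library. The first was highest in Ly6ghigh, at 116 to 124 CPM, against 44.4 to 45.7 in Ly6glow and 39.9 to 43.0 in NL. The T, B and NK list was highest there too, at 65.3 to 65.8 CPM, against 39.6 to 41.6 in Ly6glow and 46.9 to 50.3 in NL. The 10 granule genes of immature neutrophils and the 4 proliferation genes were highest in Ly6ghigh, at 35717 to 36452 and 449 to 455 CPM, against 12879 to 13402 and 89.7 to 97.6 in Ly6glow and 6339 to 6625 and 128 to 139 in NL. The part of these differences in the results was not tested. Plots name the groups Ly6Ghi, Ly6Glow and NL.

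The order of the groups for the chain as a whole depended on the scale. The summed CPM of the 84 subunit genes with values was 3172 to 3215 in Ly6ghigh, 2521 to 2655 in Ly6glow and 2039.6 to 2152 in NL. The summed FPKM of the same genes was 3746 to 3795 in Ly6ghigh, 2517 to 2661 in Ly6glow and 3074 to 3235 in NL. Ly6ghigh libraries were the highest on both scales, while Ly6glow lay above NL on the first and below it on the second. FPKM are relative to all reads of a library, and TMM takes out the share of reads held by a few very abundant genes, with scaling factors of about 0.95 in Ly6ghigh, 0.80 in Ly6glow and 1.3 in NL. Over the 89 tested members, 47 followed the order Ly6ghigh, Ly6glow, NL by mean CPM and 17 by mean FPKM, and 14 by CPM and 36 by FPKM followed the order NL, Ly6ghigh, Ly6glow.

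Groups were compared by edgeR's quasi-likelihood test over all tested genes, with Benjamini-Hochberg adjustment, and the ± after a log2 fold change is its standard error. Macrometastatic Ly6ghigh neutrophils were compared with Ly6ghigh neutrophils of normal lung to see which members differ between tumor-bearing and normal lung. With calls made where the log2 fold change exceeded 0.58 in size and the adjusted p did not exceed 0.05, 49 of the 89 members were higher in Ly6ghigh, where 26.3% of all 14108 tested genes were, and 6 were lower, where 36.6% were. The median log2 fold change of the members was 0.66, against -0.09 over all tested genes, and 74 members lay above the median of all genes. No overlap between the libraries of either group was seen for 67 members that were higher, against 40.2% of all tested genes, and for 12 that were lower, against 45.0%. When libraries were scaled to their total counts the median of all genes fell to -0.55. Then 11 members were called higher and 15 lower, where 12.3% and 48.5% of all tested genes were. The share of members called higher was then near that of all tested genes. Rescaling a library moves each gene of a comparison by nearly the same amount, so the distance of 0.75 between the medians is not a check on the scaling.

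Transcript length stood beside this difference. The tested members were short, with a median length of 694 nt against 2916 nt over all tested genes, and other short genes moved the same way. Among transcripts of up to 500 nt the median log2 fold change was 0.83 for 25 members and 0.59 for 122 other genes, and from 500 to 750 nt it was 0.66 for 27 members and 0.50 for 295 other genes. From 1000 to 1500 nt the medians were 0.62 for 15 members and 0.10 for 1377 other genes. An offset fitted to transcript length was an alternative chosen after the data were seen. With it 21 of the 89 members were called higher and 9 lower, where 34.5% and 31.9% of all tested genes were. The share of members called higher was then below that of all tested genes, and the distance between the medians was 0.20.

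Macrometastatic Ly6glow neutrophils against NL gave a mixed picture. Here 30 members were called higher, where 28.7% of all tested genes were, and 17 lower, where 40.8% were. The members' median was 0.24 and that of all tested genes -0.16, and 58 members lay above the latter. Groups did not overlap for 47 members that were higher (39.4% of all tested genes) and 26 that were lower (47.5%). The sign of the members' median turned with the scale, to -0.46 under total-count scaling, with -0.86 for all genes. No member was then called higher in edgeR and 40 were called lower, where 9.43% and 56.7% of all tested genes were. With the length offset 20 were called higher and 19 lower, where 38.8% and 35.0% of all tested genes were. The medians of 0.18 and 0.16 were then nearly equal.

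The comparison of Ly6glow with Ly6ghigh neutrophils, both from macrometastatic lung, had the steadiest direction. A log2 fold change below 0 was fitted for 79 of the 89 members. Of these 24 were called lower in Ly6glow, where 15.9% of all tested genes were, and Ndufaf7 alone was called higher, where 9.29% were. Members had a median of -0.46 against -0.04 over all genes, and the libraries did not overlap for 68 that were lower (33.1% of all tested genes) and 6 that were higher (29.0%). Total-count scaling gave 53 members lower and 0 higher, where 26.4% and 4.04% of all tested genes were, with medians of -0.70 and -0.28. The length offset gave 11 lower and 2 higher, where 12.1% and 12.7% of all tested genes were, with medians of -0.20 and 0.06. With that offset the share of members called lower was near that of all tested genes. Transcripts of up to 500 nt had medians of -0.39 for the members and -0.31 for other genes, and those from 500 to 750 nt had -0.50 and -0.23.

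**Figure D1:**
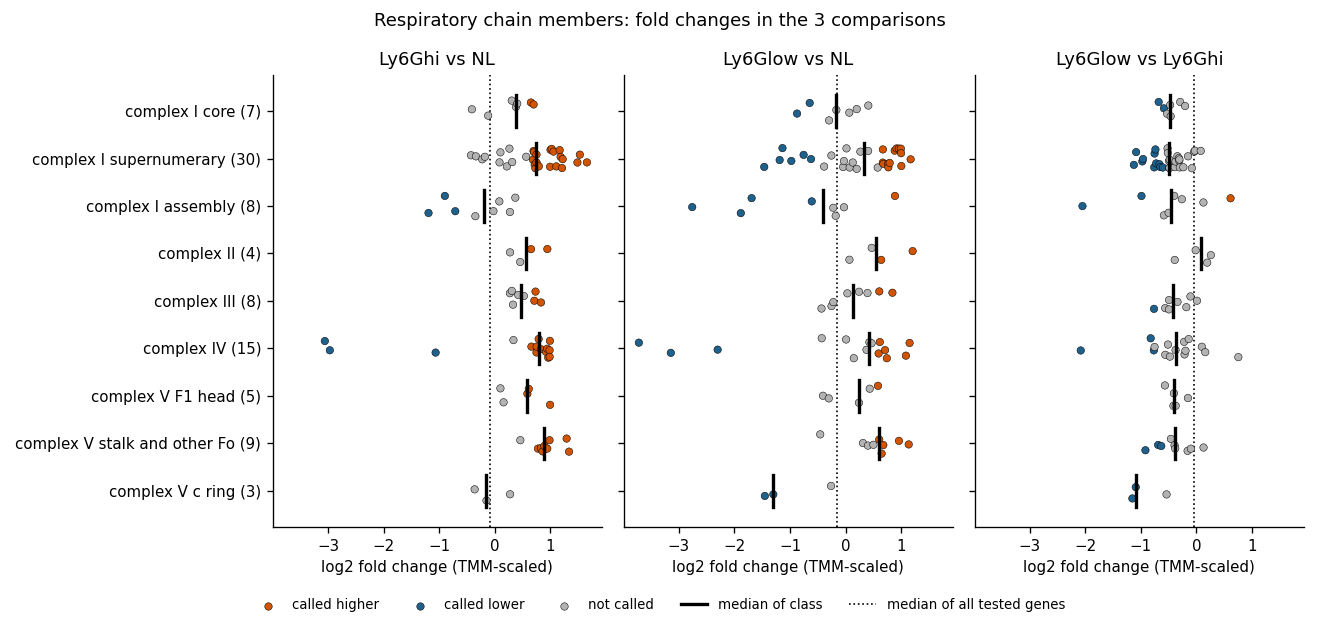
Each point is 1 of the 89 tested members, placed by its fitted log2 fold change (horizontal axis, TMM-scaled) in each of the 3 comparisons and by its class (vertical axis, number of members in brackets). Orange points were called higher and blue points lower, the short bars are class medians, and the dotted lines, at -0.09, -0.16 and -0.04, are the medians of all tested genes. The median of the c ring lies left of those of the other complex V classes, and complex II has no called member in the last panel.

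**Figure D2:**
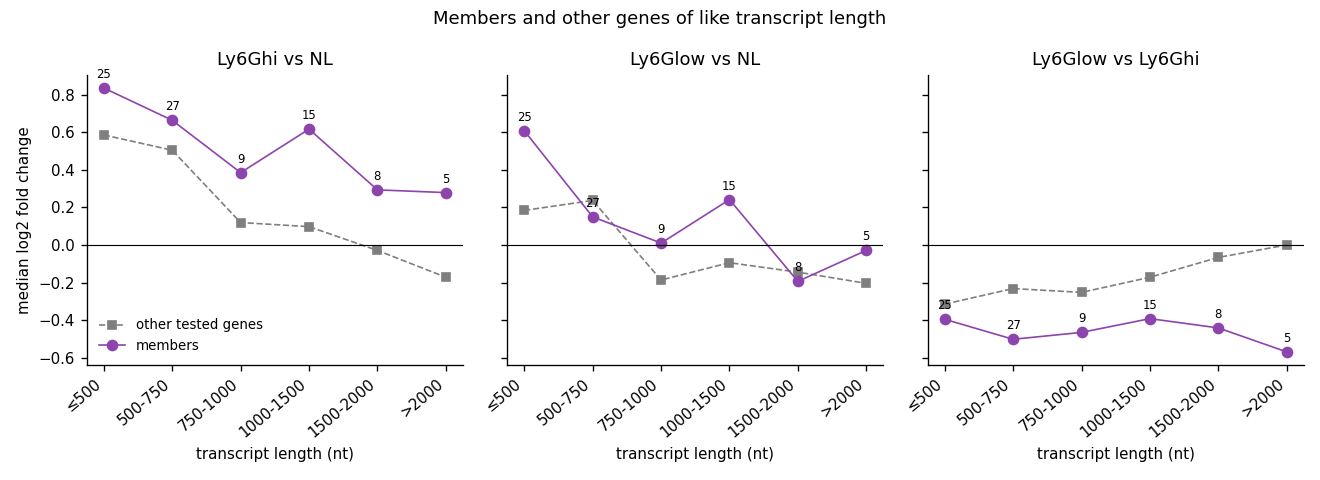
Median log2 fold change (vertical axis) of members (circles, with their number) and of the other tested genes (squares) by transcript length in nt (horizontal axis), for the 3 comparisons. Short genes of both kinds lie higher against NL, members lie below the other genes at each length in the last panel, and from 1000 to 1500 nt the first panel shows 0.62 for members and 0.10 for other genes.

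Complex I takes electrons from NADH, and its nuclear subunits fall into a core that holds the redox centers and a larger supernumerary set that surrounds it. In Ly6ghigh against NL, 20 of the 30 supernumerary members (66.7%) and 2 of the 7 core members (28.6%) were called higher, and none lower. Of all tested genes, 26.3% were called higher there and 36.6% lower. Most supernumerary members had transcripts of up to 750 nt, while all core members but Ndufs7, at 732 nt, were longer. Among genes other than the members, 50.8% were called higher there up to 500 nt, 43.7% from 500 to 750 nt and 23.7% over 2000 nt. The part of transcript length in the contrast of the classes was not tested. In Ly6glow against NL, 13 supernumerary members (43.3%) were called higher, where 28.7% of all tested genes were. The 6 supernumerary (20%) and 2 core members (28.6%) called lower there were below the share of 40.8% of all tested genes. In Ly6glow against Ly6ghigh, 11 supernumerary (36.7%) and 2 core members (28.6%) were called lower and none higher, where 15.9% of all tested genes were called lower and 9.29% higher.

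Ndufb7, a supernumerary subunit of the membrane arm, had the highest mean FPKM of complex I. It measured 45.5, 43.1 and 42.6 CPM in Ly6ghigh, 27.9, 30.2 and 25.5 CPM in Ly6glow and 17.0, 12.3 and 15.9 CPM in NL. The 3 groups did not overlap, with Ly6ghigh highest, and the log2 fold change was 1.54 ± 0.0837 (adjusted p = 1.49e-13) in Ly6ghigh against NL, and -0.65 ± 0.0832 (adjusted p = 7.48e-07) in Ly6glow against Ly6ghigh. Ndufv3, a supernumerary subunit next to the NADH-binding module, rose most of complex I in Ly6ghigh against NL, with a log2 fold change of 1.66 ± 0.0794 (adjusted p = 1.42e-14) and levels of 32.1 ± 1.57 against 10.1 ± 0.960 CPM (n = 3). Its Ly6glow libraries lay between the other groups at 18.3, 22.4 and 20.0 CPM. Ndufv3 and Ndufb7 passed the test in Ly6ghigh against NL under total-count scaling as well, at 1.20 and 1.07, but their fall in Ly6glow against Ly6ghigh did not pass the fold threshold with the length offset, at -0.39 and -0.37.

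Ndufa8, a supernumerary subunit held together by disulfide bonds, was high in both tumor-bearing groups. Its libraries measured 39.1, 39.8 and 42.0 CPM in Ly6ghigh, 41.7, 39.5 and 36.3 in Ly6glow and 17.9, 16.0 and 18.1 in NL. The macrometastatic groups overlapped each other and stood clear of NL, with log2 fold changes of 1.21 ± 0.0654 (adjusted p = 1.20e-13) for Ly6ghigh and 1.17 ± 0.0680 (adjusted p = 3.96e-13) for Ly6glow. Under total-count scaling the Ly6glow value was 0.47 and no longer called. Ndufa7, another supernumerary subunit, was at 19.4 ± 0.643 CPM in Ly6ghigh, 20.5 ± 2.91 in Ly6glow and 12.0 ± 1.45 in NL.

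Other supernumerary subunits were lowest in Ly6glow. Ndufa5 had 3.75, 3.60 and 3.34 CPM in Ly6ghigh, 2.11, 1.20 and 1.60 in Ly6glow and 4.22, 4.47 and 4.82 in NL, so that the groups did not overlap and NL was highest. Its log2 fold change in Ly6glow was -1.13 ± 0.199 (adjusted p = 5.12e-05) against Ly6ghigh and -1.46 ± 0.184 (adjusted p = 1.90e-07) against NL. Ndufab1, the mitochondrial acyl carrier protein, which also serves fatty acid synthesis, was at 5.43 ± 0.284 CPM in Ly6ghigh, 3.19 ± 0.644 in Ly6glow and 7.30 ± 0.641 in NL. Its log2 fold change in Ly6glow was -0.76 ± 0.157 (adjusted p = 2.84e-04) against Ly6ghigh, and -1.19 ± 0.144 (adjusted p = 1.09e-07) against NL. Both genes were called lower against NL under total-count scaling and with the length offset too.

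Among the core subunits Ndufs1, which carries electrons through iron-sulfur clusters, rose in Ly6ghigh against NL (log2 fold change 0.70 ± 0.0526, adjusted p = 4.03e-11), with 50.6, 52.7 and 53.8 against 32.5, 31.7 and 32.4 CPM. Ndufv2, an iron-sulfur protein of the NADH module, also rose there (log2 fold change 0.65 ± 0.0707, adjusted p = 1.95e-08) and fell in Ly6glow against Ly6ghigh (log2 fold change -0.59 ± 0.0775, adjusted p = 1.18e-06), as did Ndufs8 (log2 fold change -0.68 ± 0.113, adjusted p = 2.35e-05). Ndufv1, which binds NADH, was at 23.2, 24.7 and 27.2 CPM in Ly6ghigh, 18.7, 16.7 and 16.7 in Ly6glow and 28.0, 26.4 and 26.9 in NL. Only the Ly6glow libraries stood apart from the others for this gene, and the log2 fold change against NL was -0.65 ± 0.0732 (adjusted p = 3.91e-08). Ndufs3 was lower in Ly6glow than in NL as well (log2 fold change -0.87 ± 0.0935, adjusted p = 1.56e-08). The Ndufs1 and Ndufv2 rises were not called under total-count scaling.

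The 8 genes named Ndufaf encode assembly factors of complex I and not subunits. Against NL, 3 of them (37.5%) were called lower in Ly6ghigh and none higher, and 4 (50%) lower and 1 higher in Ly6glow. The shares called lower lie near the 36.6% and 40.8% of all tested genes, so these counts are no result about the assembly factors as a group. Of all tested genes, 26.3% and 28.7% were called higher. Ndufaf4 was at 2.15, 1.89 and 1.36 CPM in Ly6ghigh, 0.893, 1.13 and 0.686 in Ly6glow and 3.28, 3.06 and 3.74 in NL, without overlap, and its log2 fold change was -0.90 ± 0.188 (adjusted p = 1.63e-04) in Ly6ghigh and -1.89 ± 0.235 (adjusted p = 1.72e-07) in Ly6glow against NL. Ndufaf5, a hydroxylase that modifies a core subunit, had counts of 45, 34 and 40 in NL, 15, 16 and 23 in Ly6ghigh and 3, 4 and 3 in Ly6glow, which is near the 3 counts that a count of 0 allows. Ndufaf2 likewise had 20, 17 and 25 counts in NL, 9, 5 and 6 in Ly6ghigh and 5, 3 and 3 in Ly6glow. Ndufaf7, a methyltransferase acting on another core subunit, ran the other way, with 14.1, 17.2 and 18.4 CPM in Ly6ghigh, 25.7, 26.0 and 24.5 in Ly6glow and 14.0, 14.1 and 13.1 in NL. Its Ly6glow libraries lay above all others, with a log2 fold change of 0.61 ± 0.0830 (adjusted p = 1.63e-06) against Ly6ghigh. This was the only member called higher in that comparison, and without Ly6ghigh replicate 1 or under total-count scaling the number was 0.

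Complex II, succinate dehydrogenase, links the chain to the tricarboxylic acid cycle, pumps no protons and is encoded wholly in the nucleus. None of its 4 members was called in Ly6glow against Ly6ghigh, and the class median of 0.09 there was above that of all tested genes, at -0.04. Sdha, the flavoprotein that oxidizes succinate, measured 102, 107 and 107 CPM in Ly6ghigh, 121, 121 and 119 in Ly6glow and 85.7, 85.6 and 88.6 in NL. Sdhd, a membrane anchor, had the same order, with 66.7, 62.6 and 64.2 in Ly6ghigh, 77.5, 78.9 and 75.0 in Ly6glow and 33.0, 34.9 and 32.3 CPM in NL. Neither gene showed overlap between groups, and Ly6glow was highest by CPM. Sdhd rose against NL with a log2 fold change of 0.95 ± 0.0492 (adjusted p = 6.06e-14) in Ly6ghigh and 1.21 ± 0.0496 (adjusted p = 7.39e-16) in Ly6glow, which total-count scaling lowered to 0.48 and 0.51 and below the fold threshold. Sdha did not pass that threshold in any comparison, and by FPKM its mean was 35.5 ± 1.01 in Ly6ghigh, 34.4 ± 0.289 in Ly6glow and 40.3 ± 0.791 in NL, the reverse order against NL.

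Sdhb, the iron-sulfur subunit, was at 41.6, 47.2 and 43.9 CPM in Ly6ghigh, 42.7, 45.3 and 43.5 in Ly6glow and 28.9, 28.1 and 27.3 in NL. The macrometastatic groups overlapped and stood above NL, with log2 fold changes of 0.66 ± 0.0563 (adjusted p = 4.34e-10) in Ly6ghigh and 0.64 ± 0.0584 (adjusted p = 1.08e-09) in Ly6glow, and the latter became -0.06 under total-count scaling. Sdhc, the other anchor, ran unlike the rest of the complex, with 31.6, 29.2 and 30.7 CPM in Ly6ghigh, 23.5, 23.5 and 22.7 in Ly6glow and 21.6, 23.2 and 21.6 in NL. Its Ly6glow and NL libraries overlapped and lay below Ly6ghigh, and no comparison passed the fold threshold.

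Complex III had 8 members, of which 3 (37.5%) were called higher in Ly6ghigh and 2 (25%) in Ly6glow against NL, and none lower. Among all tested genes 26.3% and 28.7% were called higher, so that the counts called higher do not set the complex apart. The shares of all tested genes called lower were 36.6% and 40.8%. All 8 members lay above the median of all tested genes in Ly6ghigh against NL, and 5 in Ly6glow against NL. Uqcrh, the hinge subunit that helps cytochrome c bind, had the highest FPKM of the complex and measured 45.8, 46.2 and 46.5 CPM in Ly6ghigh, 47.3, 47.6 and 44.5 in Ly6glow and 27.7, 25.1 and 24.7 in NL. The log2 fold change against NL was 0.84 ± 0.0555 (adjusted p = 5.05e-12) in Ly6ghigh and 0.84 ± 0.0574 (adjusted p = 6.70e-12) in Ly6glow, while the macrometastatic groups overlapped. Total-count scaling brought these values to 0.37 and 0.14, under the threshold. Uqcrb, a ubiquinone-binding subunit, was the 1 member called lower in Ly6glow against Ly6ghigh, with 10.4, 9.93 and 8.54 against 15.5, 15.7 and 17.8 CPM (log2 fold change -0.76 ± 0.0989, adjusted p = 8.61e-07), and -0.48 with the length offset. The small subunit Uqcr11, with 9.87 ± 1.15 CPM in Ly6ghigh, 6.99 ± 1.06 in Ly6glow and 8.14 ± 1.50 in NL, was not called in any comparison.

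Complex IV, cytochrome c oxidase, is rich in subunits with more than 1 isoform, each used in other tissues. Of its 15 tested members, 11 (73.3%) were called higher and 3 (20%) lower in Ly6ghigh against NL, where 26.3% and 36.6% of all tested genes were. In Ly6glow 6 (40%) were called higher and 3 (20%) lower against NL, where 28.7% and 40.8% were, and 3 (20%) lower against Ly6ghigh, where 15.9% were. The 3 members called lower against NL were the same in both groups, namely Cox4i2, Ndufa4l2 and Cox6b2. Cox4i1, the broadly used form of a regulatory subunit and the member of highest FPKM in this complex, measured 147, 154 and 149 CPM in Ly6ghigh, 114, 124 and 109 in Ly6glow and 92.9, 85.2 and 89.1 in NL. The groups did not overlap, and the log2 fold change in Ly6ghigh against NL was 0.75 ± 0.0454 (adjusted p = 8.73e-13). By FPKM Cox4i1 was at 205 ± 5.23 in Ly6ghigh, 134 ± 8.52 in Ly6glow and 168 ± 5.53 in NL, so that the order of Ly6glow and NL turned with the scale, and the rise in Ly6ghigh was 0.29 and not called under total-count scaling.

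Cox4i2, the form that lung and low oxygen favor, had counts of 72, 64 and 69 in NL, 9, 3 and 6 in Ly6ghigh and 10, 8 and 6 in Ly6glow. NL stood far above the other groups, which overlapped, with log2 fold changes of -3.06 ± 0.279 (adjusted p = 1.19e-09) for Ly6ghigh and -2.30 ± 0.267 (adjusted p = 5.34e-08) for Ly6glow. Of Cox4i1 and Cox4i2 together, the latter made up 3.42% ± 0.0492 of FPKM in NL (SD, n = 3), 0.247% ± 0.132 in Ly6ghigh and 0.524% ± 0.140 in Ly6glow. Ndufa4, named for complex I but counted as a subunit of complex IV, has a paralog induced by low oxygen, Ndufa4l2, which had 44, 35 and 40 counts in NL against 8, 0 and 3 in Ly6ghigh and 3, 2 and 0 in Ly6glow. Ndufa4 itself fell in Ly6glow against Ly6ghigh, from 19.6, 20.0 and 23.2 to 12.1, 12.9 and 11.7 CPM (log2 fold change -0.77 ± 0.0884, adjusted p = 1.55e-07), with 17.7, 15.7 and 16.1 in NL. Cox6b2, the testis form of Cox6b1, had 41, 35 and 34 counts in NL, 8, 14 and 17 in Ly6ghigh and 2, 1 and 4 in Ly6glow, without overlap between the groups. The epithelial, endothelial and fibroblast markers given above were also several times higher in NL, and the part of such cells in the counts of Cox4i2, Ndufa4l2 and Cox6b2 was not tested. Cox6b2 was called lower in Ly6glow than in Ly6ghigh too (adjusted p = 0.00145), at the few counts given. Several lists of other cells also differed between those groups, and their part was not tested. In bulk libraries fewer cells of a type and less RNA per cell cannot be told apart.

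Cox7a2l, which ties complexes III and IV into supercomplexes, was among the members of complex IV that rose most against NL. It measured 113, 108 and 105 CPM in Ly6ghigh, 119, 126 and 119 in Ly6glow and 57.2, 53.7 and 52.9 in NL. By CPM Ly6glow lay above Ly6ghigh in all libraries, while mean FPKM had the reverse order, at 94.8 ± 3.13 and 100 ± 3.43. The log2 fold change was 1.00 ± 0.0454 (adjusted p = 6.11e-15) in Ly6ghigh and 1.15 ± 0.0460 (adjusted p = 4.43e-16) in Ly6glow against NL. Cox7a2, the broadly used form, reached 40.2 ± 0.401 CPM in Ly6ghigh, 27.2 ± 2.40 in Ly6glow and 20.2 ± 1.11 in NL (log2 fold change 0.99 ± 0.0629, adjusted p = 2.25e-12 for Ly6ghigh against NL), and the muscle form Cox7a1 had at most 9 counts in a library. Cox8a, the only isoform of its subunit with more than 2 counts, measured 72.0, 70.3 and 70.4 CPM in Ly6ghigh, 74.5, 76.2 and 76.8 in Ly6glow and 38.2, 34.0 and 34.7 in NL. By FPKM Cox8a was higher in Ly6ghigh, at 136 ± 1.48 against 123 ± 1.83 in Ly6glow. It rose with a log2 fold change of 0.99 ± 0.0491 (adjusted p = 2.78e-14) in Ly6ghigh and 1.09 ± 0.0501 (adjusted p = 6.18e-15) in Ly6glow against NL.

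The other tested genes of these isoform sets, by mean CPM, were highest in Ly6ghigh. Cox6a1, the form used outside muscle, was at 57.0 ± 1.88 CPM in Ly6ghigh, 48.8 ± 1.76 in Ly6glow and 29.1 ± 4.13 in NL, called higher in both groups against NL (log2 fold changes 0.97 and 0.74), while the muscle form Cox6a2 had at most 10 counts. Cox6b1, which faces cytochrome c, was at 49.1 ± 1.41, 44.5 ± 1.70 and 29.0 ± 0.429 CPM in the same order of groups (log2 fold changes 0.76 and 0.62). Cox6c was called higher in Ly6ghigh (log2 fold change 0.95 ± 0.0589, adjusted p = 1.56e-12) and not in Ly6glow against NL, and the 2 groups were tested against each other directly, at -0.48 and under the fold threshold. Cox7b went from 28.5 ± 1.55 CPM in Ly6ghigh to 16.1 ± 0.600 in Ly6glow (log2 fold change -0.82 ± 0.0730, adjusted p = 2.70e-09) and was at 16.0 ± 0.885 in NL. Under total-count scaling the calls of Cox6a1, Cox6b1, Cox6c, Cox7a2, Cox7a2l and Cox8a against NL were lost, with values of 0.29 to 0.53 in Ly6ghigh.

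**Figure D3:**
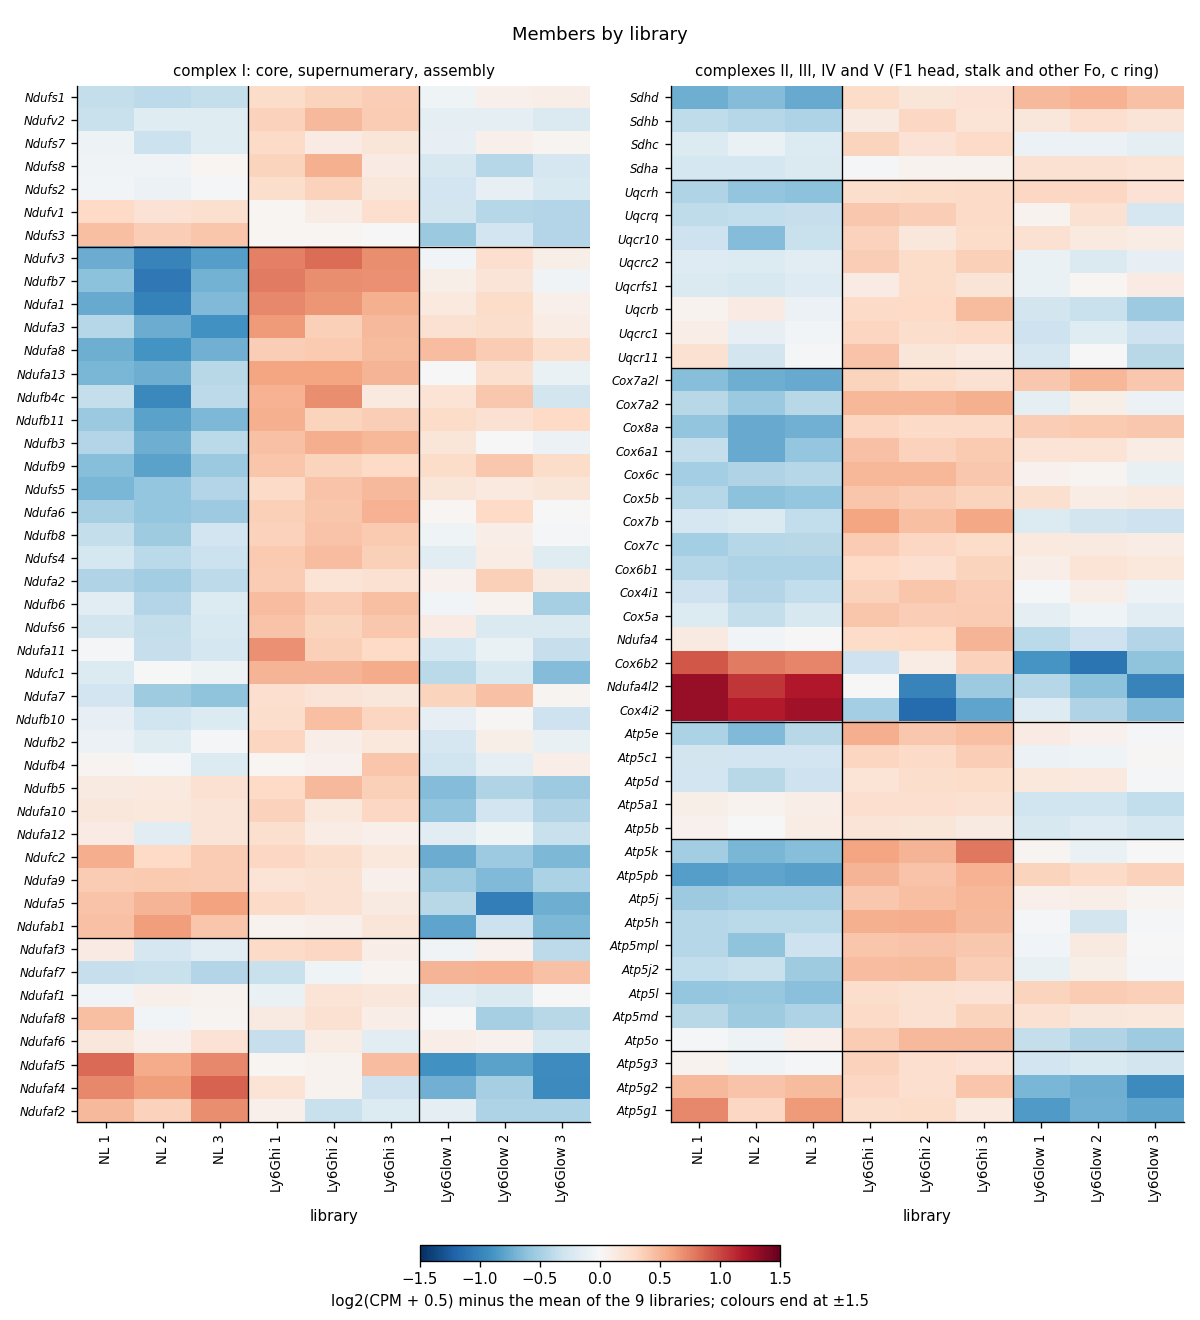
Colors give log2(CPM + 0.5) minus the mean of the 9 libraries for the 89 tested members (vertical) in each library (horizontal), with lines between groups of libraries and between classes of members. Most members are palest or blue in NL and red in Ly6ghigh, while Cox4i2, Ndufa4l2, Cox6b2, Ndufaf5, Ndufaf4, Atp5g1 and Atp5g2 are reddest in NL.

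Complex V, the ATP synthase, has a soluble head, a peripheral stalk with further membrane subunits, and a ring of c subunits through which protons pass. In Ly6ghigh against NL 3 of 5 head genes (60%) and 8 of 9 stalk and other membrane genes (88.9%) were called higher, where 26.3% of all tested genes were, and none of the 3 c ring genes was called. In Ly6glow against NL, 1 head gene (20%) and 5 stalk and other membrane genes (55.6%) were called higher, where 28.7% of all tested genes were, and 2 of the 3 c ring genes lower, where 40.8% were. In Ly6glow against Ly6ghigh, 3 stalk and other membrane genes (33.3%) and 2 c ring genes were called lower, where 15.9% of all tested genes were. Most stalk and other membrane genes had transcripts of up to 750 nt, and most head genes were longer. The part of transcript length in the contrast of these classes was not tested.

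Atp5b, the catalytic subunit of the head, had the highest FPKM of the complex. Its libraries were at 318, 313 and 304 CPM in Ly6ghigh, 234, 241 and 231 in Ly6glow and 291, 279 and 299.7 in NL, and it was called in no comparison. Atp5pb, the membrane-anchored part of the stalk, measured 171, 162 and 173 CPM in Ly6ghigh, 152, 148 and 153 in Ly6glow and 67.9, 69.7 and 68.5 in NL. It rose against NL with a log2 fold change of 1.30 ± 0.0391 (adjusted p = 3.72e-18) in Ly6ghigh and 1.14 ± 0.0401 (adjusted p = 4.75e-17) in Ly6glow. Under total-count scaling the values were 0.83, still called, and 0.44, not called. Atp5k, a small membrane subunit that helps synthases pair, was at 10.5, 9.98 and 12.2 CPM in Ly6ghigh, 7.07, 6.32 and 6.86 in Ly6glow and 4.63, 4.06 and 4.19 in NL (log2 fold change 1.34 ± 0.110, adjusted p = 1.96e-10 for Ly6ghigh against NL). It is the shortest member, at 271 nt, and with the length offset that value was 0.39 and not called.

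Atp5l, another small membrane subunit, was highest in Ly6glow by CPM, with 77.5, 79.9 and 78.4 against 73.3, 71.7 and 70.9 in Ly6ghigh and 40.6, 40.9 and 39.5 in NL. By FPKM it was highest in Ly6ghigh, at 147 ± 2.09 against 136 ± 1.81 in Ly6glow. It rose in both groups against NL (log2 fold changes 0.83 and 0.96, and 0.37 and 0.26 under total-count scaling). Atp5o, which joins the stalk to the head, was lowest in Ly6glow, with 18.3, 17.2 and 16.1 CPM against 30.9, 33.2 and 33.3 in Ly6ghigh and 23.3, 22.4 and 24.9 in NL. Its log2 fold change in Ly6glow against Ly6ghigh was -0.92 ± 0.0714 (adjusted p = 3.22e-10).

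The 3 c ring genes, Atp5g1, Atp5g2 and Atp5g3, encode the same mature protein behind different import sequences. Atp5g1 measured 8.98, 9.09 and 8.23 CPM in Ly6ghigh, 3.90, 4.29 and 4.12 in Ly6glow and 12.6, 9.35 and 11.8 in NL. Atp5g2 measured 20.4, 19.7 and 22.1 CPM in Ly6ghigh, 9.99, 9.71 and 8.23 in Ly6glow and 23.3, 22.3 and 23.1 in NL. For both genes Ly6glow lay far below the other groups, with log2 fold changes against Ly6ghigh of -1.09 ± 0.142 (adjusted p = 8.97e-07) for Atp5g1 and -1.15 ± 0.0874 (adjusted p = 2.12e-10) for Atp5g2. Against NL they were -1.45 ± 0.131 (adjusted p = 9.35e-10) for Atp5g1 and -1.30 ± 0.0832 (adjusted p = 2.31e-12) for Atp5g2. Atp5g3 was at 54.3, 50.9 and 49.9 CPM in Ly6ghigh, 34.8, 36.4 and 35.4 in Ly6glow and 44.4, 41.1 and 42.3 in NL, without overlap, and did not pass the fold threshold in any comparison. Atp5g1 and Atp5g2 kept their calls in Ly6glow under every alternative that gave them a value.

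Shares within a library do not depend on how libraries are scaled. Atp5g3 made up 54.3, 55.1 and 53.9% of the FPKM of the 3 c ring genes in NL, 63.8, 62.9 and 61.0% in Ly6ghigh and 70.3, 71.2 and 73.6% in Ly6glow. The groups did not overlap, with NL lowest and Ly6glow highest. Complex II held 5.23% ± 0.0562 (SD, n = 3) of the summed FPKM of all subunits in Ly6glow, 4.02% ± 0.0584 in Ly6ghigh and 4.34% ± 0.216 in NL, and complex IV 30.4% ± 0.129 in Ly6glow, 29.1% ± 0.0252 in Ly6ghigh and 27.0% ± 0.315 in NL. Complex V ran the other way from complex IV, at 32.7% ± 0.624 in Ly6glow, 34.0% ± 0.137 in Ly6ghigh and 36.3% ± 0.598 in NL. Complex I held 25.4% ± 0.210 in Ly6ghigh, 23.9% ± 0.677 in Ly6glow and 24.0% ± 0.529 in NL, where the last 2 groups overlapped, and complex III 7.50% ± 0.0819, 7.72% ± 0.0952 and 8.34% ± 0.199 in the same order. With 3 libraries against 3, a two-sided exact permutation test of a share cannot give a p below 0.1.

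**Figure D4:**
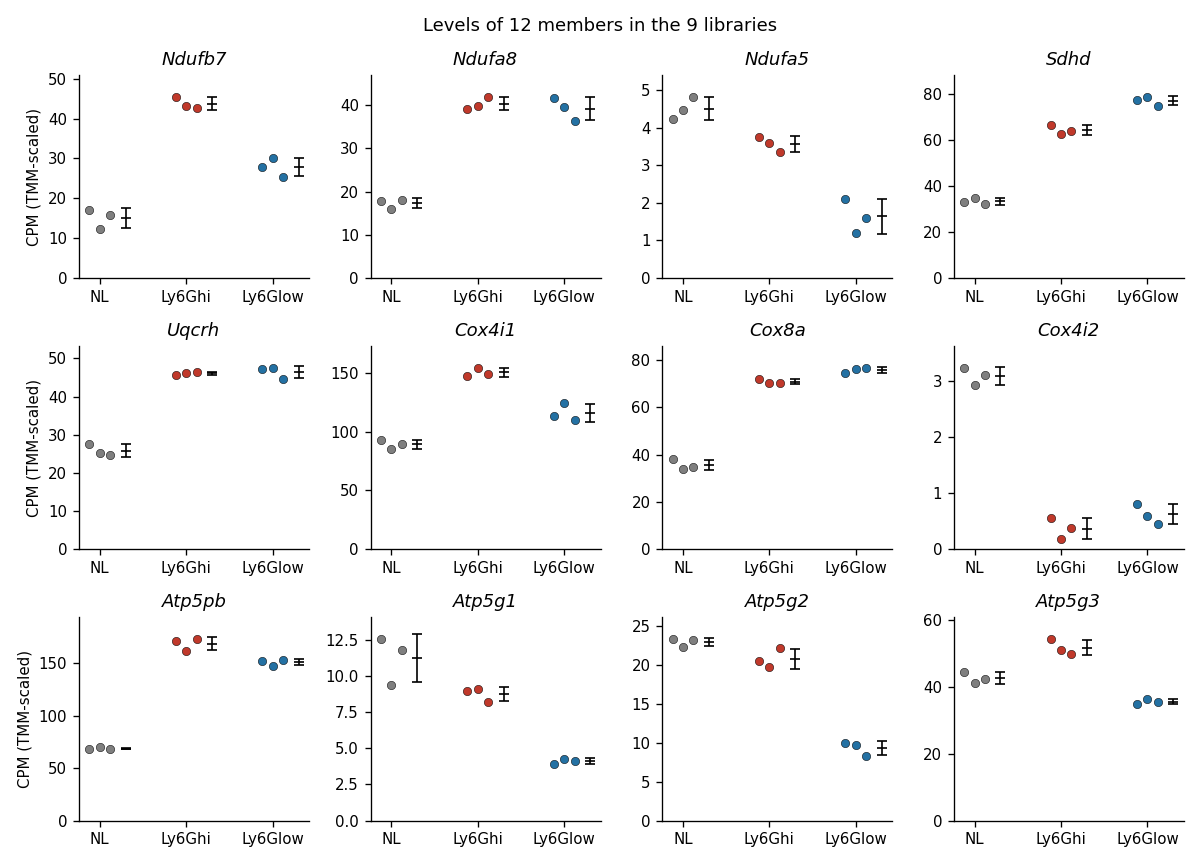
CPM (vertical axes, from 0) of 12 members in the 9 libraries, with 3 points a group and the mean ± SD beside them. Cox4i2 is high in NL only, at 3.23, 2.92 and 3.11 CPM, Atp5g1 and Atp5g2 are lowest in Ly6glow, and Sdhd and Cox8a are lowest in NL.

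**Figure D5:**
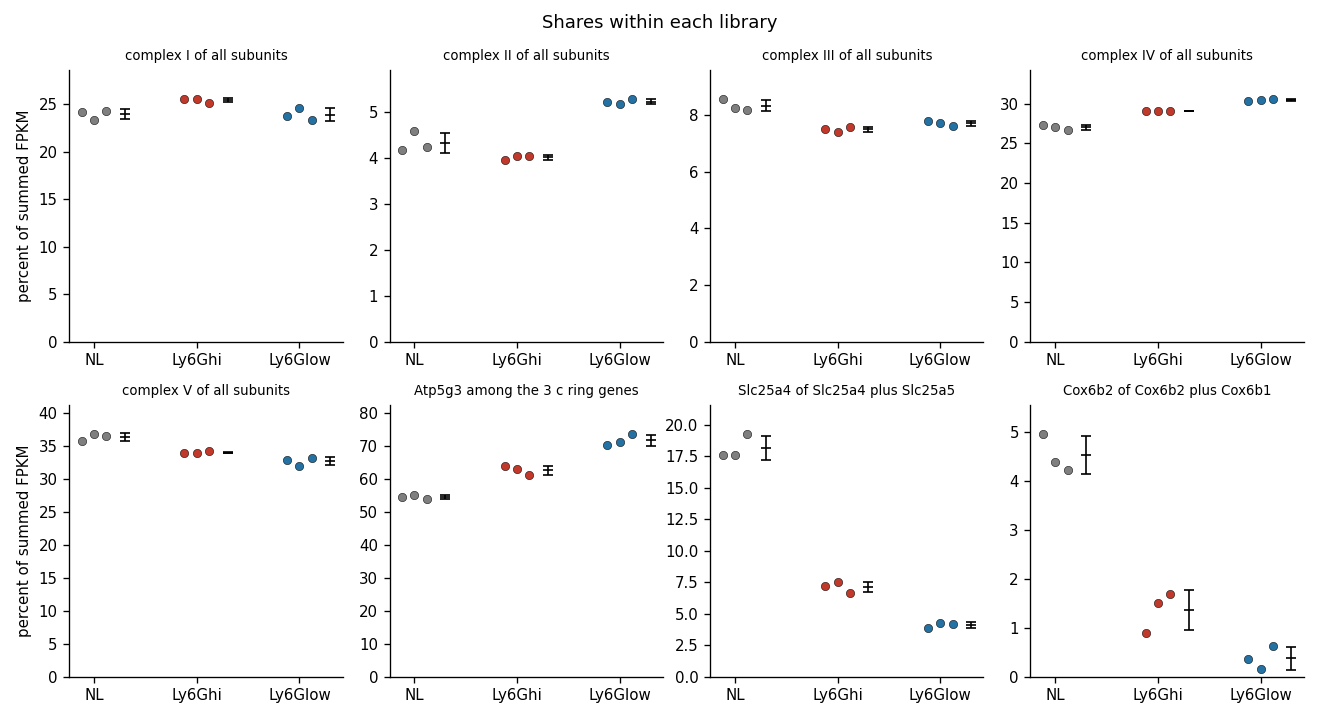
Percent of summed FPKM in each library (vertical axes, from 0), with 3 points a group and mean ± SD: the 5 complexes among all subunits, Atp5g3 among the c ring genes, Slc25a4 among Slc25a4 and Slc25a5, and Cox6b2 among Cox6b1 and Cox6b2. Atp5g3 goes from about 54% in NL to about 72% in Ly6glow, and Slc25a4 from about 18% to about 4.1%.

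Genes outside the symbol rule that work with the chain or, as Cyc1, belong to it were read from lists of 5 kinds. Of all tested genes, 26.3% were called higher and 36.6% lower in Ly6ghigh against NL. The shares were 28.7% and 40.8% in Ly6glow against NL, and 9.29% and 15.9% in Ly6glow against Ly6ghigh. The medians of all tested genes were -0.09, -0.16 and -0.04 in the same order. Of 10 tested genes on the list of carriers and cytochromes, 1 was called higher and 2 lower in each group against NL. In Ly6glow against Ly6ghigh 1 was called higher and 3 lower, and the medians were 0.26, 0.04 and -0.38. Slc25a4, an ADP/ATP carrier typical of heart and muscle, was at 28.7, 26.4 and 30.6 CPM in NL, 12.4, 12.8 and 11.1 in Ly6ghigh and 5.52, 6.17 and 5.87 in Ly6glow (log2 fold change -1.04 ± 0.111, adjusted p = 4.83e-08 for Ly6glow against Ly6ghigh). Slc25a5, the carrier of most other cells, was at 125 ± 5.50 CPM in NL, 153 ± 1.66 in Ly6ghigh and 133 ± 1.76 in Ly6glow, so that Slc25a4 made up 18.2% ± 0.967 of their FPKM in NL, 7.12% ± 0.433 in Ly6ghigh and 4.09% ± 0.210 in Ly6glow. Slc25a3, the phosphate carrier, was the 1 carrier called higher in Ly6glow against Ly6ghigh (log2 fold change 0.65 ± 0.0338, adjusted p = 4.19e-13). Cyc1, a cytochrome subunit of complex III that the symbol rule leaves out, was called lower there (log2 fold change -0.62 ± 0.0768, adjusted p = 4.27e-07). Cytochrome c itself, Cycs, was at 49.6 ± 1.79 CPM in Ly6ghigh, 38.2 ± 1.63 in Ly6glow and 37.2 ± 2.02 in NL.

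Of 45 tested assembly factors outside the symbol rule, 14 were called higher and 7 lower in Ly6ghigh against NL, 15 and 11 in Ly6glow against NL, and 1 and 7 in Ly6glow against Ly6ghigh, with medians of 0.18, -0.08 and -0.25. The 14 and 15 called higher lie near the 26.3% and 28.7% of all tested genes. Likewise, the 7 called lower in Ly6glow against Ly6ghigh lie near 15.9%. These counts are no result about the factors as a group. The 1 called higher in the last comparison was Cox17, a copper chaperone of complex IV (log2 fold change 0.59 ± 0.0549, adjusted p = 5.14e-09). Mitochondrial ribosomal proteins, which serve only the subunits encoded by mitochondrial DNA, had 19 of 78 called higher and 15 lower in Ly6ghigh against NL. In Ly6glow 7 were called higher and 35 lower against NL, and 0 higher and 29 lower against Ly6ghigh, and the medians were 0.11, -0.43 and -0.47. The 19 called higher lie near the 26.3% of all tested genes, and the 35 called lower near 40.8%. The share of all tested genes called lower in Ly6glow against Ly6ghigh was 15.9%. Among 26 genes of pyruvate oxidation and the tricarboxylic acid cycle, 7 were called higher and 6 lower in Ly6ghigh against NL, 8 and 9 in Ly6glow against NL, and 1 and 5 in Ly6glow against Ly6ghigh, with medians of 0.16, -0.15 and -0.36. The 7 and 8 called higher lie near the 26.3% and 28.7% of all tested genes, so they do not set this list apart. Idh2, mitochondrial isocitrate dehydrogenase, went from 26.9 ± 0.831 CPM in NL to 10.7 ± 0.341 in Ly6ghigh and 4.60 ± 0.238 in Ly6glow, and Fh1, fumarase, from 10.5 ± 1.05 in Ly6ghigh to 4.43 ± 0.831 in Ly6glow (log2 fold change -1.24 ± 0.133, adjusted p = 4.93e-08). Pdk1, a kinase that shuts pyruvate dehydrogenase, was the 1 gene of this list called higher in Ly6glow against Ly6ghigh, with 17.1, 16.6 and 17.6 against 9.23, 9.09 and 9.41 CPM (log2 fold change 0.89 ± 0.0852, adjusted p = 9.33e-09).

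Of 21 tested regulators of mitochondrial biogenesis, 6 were called higher and 6 lower in Ly6ghigh against NL, 8 and 9 in Ly6glow against NL, and 2 and 4 in Ly6glow against Ly6ghigh, with medians of 0.35, 0.18 and -0.21. The 6 called higher lie near the 26.3% of all tested genes, and the 9 called lower near 40.8%. In Ly6glow against Ly6ghigh the 2 higher and 4 lower lie near 9.29% and 15.9%. These counts do not set this list apart. Nrf1, a factor that binds many promoters of respiratory genes, was at 48.2 ± 0.715 CPM in Ly6ghigh, 50.8 ± 2.92 in Ly6glow and 24.3 ± 1.62 in NL (log2 fold change 0.99 ± 0.0587, adjusted p = 7.39e-13 for Ly6ghigh against NL). Esrra, a nuclear receptor that works with the coactivator Ppargc1a, rose too, from 26.8, 22.0 and 25.9 CPM in NL to 56.0, 55.3 and 56.1 in Ly6ghigh and 78.4, 73.8 and 67.5 in Ly6glow. Ppargc1a was under 1 CPM in each library, and its relative Ppargc1b was higher in NL, at 5.55 ± 0.307 CPM against 2.14 ± 0.259 in Ly6ghigh and 1.91 ± 0.104 in Ly6glow. Tfam, which packs and transcribes mitochondrial DNA, was at 6.89, 5.79 and 6.56 CPM in Ly6ghigh, 3.57, 3.09 and 4.04 in Ly6glow and 7.86, 8.99 and 7.39 in NL, with a log2 fold change of -0.84 ± 0.148 (adjusted p = 4.62e-05) in Ly6glow against Ly6ghigh. Under total-count scaling the calls of Slc25a3, Cox17 and Nrf1 were lost, at 0.41, 0.36 and 0.52, while those of Slc25a4, Cyc1, Fh1, Pdk1 and Tfam in Ly6glow against Ly6ghigh held.

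Promoter sequence was searched because respiratory genes are known for shared sites of Nrf1, ETS factors and Yy1. The words were GCGCA followed directly by its reverse complement for Nrf1, CCGGAAG for ETS factors and AAGATGGCG for Yy1, matched exactly on both strands with overlaps allowed. RefSeq promoters, from 250 bases before to 50 after the start, were at hand for 73 of the 89 tested members, with 78 starts in all. The Nrf1 word was in 8.97% of the members' promoters, against 1.82% of 14272 promoters of tested genes and 0.971% of all 32851 promoters. The ETS word was in 24.4%, against 15.7% and 8.86%, and the Yy1 word in 10.3%, against 2.65% and 1.4%. A match describes the sequence and shows no binding.

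The Nrf1 word stood in promoters of members that moved in either direction. The 7 members with it, Atp5g2, Atp5k, Cox6a1, Ndufa11, Ndufaf4, Ndufaf5 and Uqcrc1, showed a median of 0.31 on the log2 scale in Ly6ghigh against NL, against 0.68 for 66 members without it, and of -0.74 against -0.44 in Ly6glow against Ly6ghigh. The 19 with the ETS word had a median of 0.83 in Ly6ghigh against NL, against 0.58 for the 54 without it. The promoters, picked after the values were seen, are shown for Atp5k and Cox6a1, which were called higher in Ly6ghigh against NL, for Atp5g2 and Ndufaf5, which were called lower in Ly6glow, and for Sdhd and Atp5j as examples of the ETS and Yy1 words. Capitals mark the matches, and an ETS match on the other strand reads CTTCCGG.
Atp5k, GRCm38.p6 chr5:108434350-108434649, minus strand: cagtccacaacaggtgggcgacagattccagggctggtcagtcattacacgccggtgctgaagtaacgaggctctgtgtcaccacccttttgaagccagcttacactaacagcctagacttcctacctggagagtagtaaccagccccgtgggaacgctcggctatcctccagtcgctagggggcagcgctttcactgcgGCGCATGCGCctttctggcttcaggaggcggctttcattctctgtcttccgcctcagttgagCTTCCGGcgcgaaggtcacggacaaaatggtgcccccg
Cox6a1, GRCm38.p6 chr5:115348909-115349208, minus strand: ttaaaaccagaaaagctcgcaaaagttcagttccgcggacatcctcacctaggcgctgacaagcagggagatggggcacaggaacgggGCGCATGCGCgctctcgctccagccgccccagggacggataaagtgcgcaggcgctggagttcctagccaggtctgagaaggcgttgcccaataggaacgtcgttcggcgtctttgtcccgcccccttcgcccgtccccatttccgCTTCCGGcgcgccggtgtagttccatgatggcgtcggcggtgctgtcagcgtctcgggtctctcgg
Atp5g2, GRCm38.p6 chr15:102670998-102671297, minus strand: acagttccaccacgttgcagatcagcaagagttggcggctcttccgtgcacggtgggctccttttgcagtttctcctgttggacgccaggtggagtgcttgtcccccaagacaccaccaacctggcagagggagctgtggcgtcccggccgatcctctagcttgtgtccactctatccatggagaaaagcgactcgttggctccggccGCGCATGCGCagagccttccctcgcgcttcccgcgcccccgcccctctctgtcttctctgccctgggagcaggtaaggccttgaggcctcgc
Ndufaf5, GRCm38.p6 chr2:140170396-140170695, plus strand: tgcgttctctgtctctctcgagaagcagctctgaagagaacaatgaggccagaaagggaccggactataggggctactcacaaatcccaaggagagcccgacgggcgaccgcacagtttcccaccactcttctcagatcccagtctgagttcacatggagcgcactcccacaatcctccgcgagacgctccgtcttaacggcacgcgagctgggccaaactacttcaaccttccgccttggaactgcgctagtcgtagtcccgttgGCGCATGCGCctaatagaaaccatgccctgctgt
Sdhd, GRCm38.p6 chr9:50603800-50604099, minus strand: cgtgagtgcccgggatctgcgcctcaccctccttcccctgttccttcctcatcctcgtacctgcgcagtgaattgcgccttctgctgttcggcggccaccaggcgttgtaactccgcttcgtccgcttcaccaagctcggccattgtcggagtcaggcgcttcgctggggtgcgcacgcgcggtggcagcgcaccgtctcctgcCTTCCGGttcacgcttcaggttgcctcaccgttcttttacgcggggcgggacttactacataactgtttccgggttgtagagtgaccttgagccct
Atp5j, GRCm38.p6 chr16:84834927-84835226, minus strand: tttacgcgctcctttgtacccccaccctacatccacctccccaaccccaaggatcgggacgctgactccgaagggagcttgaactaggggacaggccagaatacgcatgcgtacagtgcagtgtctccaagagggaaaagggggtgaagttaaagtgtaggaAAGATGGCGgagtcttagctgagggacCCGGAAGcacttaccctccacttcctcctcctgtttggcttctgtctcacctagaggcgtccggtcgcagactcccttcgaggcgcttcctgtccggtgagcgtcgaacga

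By mean CPM, 4 of the 7 members with the Nrf1 word, Atp5k, Cox6a1, Ndufa11 and Uqcrc1, were highest in Ly6ghigh, and Atp5g2, Ndufaf4 and Ndufaf5 were highest in NL. Atp5j, a stalk subunit whose shown start holds a Yy1 and an ETS match, was at 50.3 ± 1.52 CPM in Ly6ghigh, 38.5 ± 0.895 in Ly6glow and 25.3 ± 0.375 in NL.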

How the data were processed

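RNA of 9 libraries, 3 a group, was sequenced after strand-specific poly(A) selection. The authors deposited an estimated count and an FPKM value per gene and library, and the submitters' processing notes name the build mm10. The aligner and counter are not given in the sources used here. Of 22064 listed genes, 3739 had no value. Estimated counts, 37.92% of them whole, were rounded and tested in edgeR 4.0.16 (TMM, filterByExpr, quasi-likelihood fit of all 9 libraries), with Benjamini-Hochberg adjustment over 14108 genes. Calls needed a log2 fold change over 0.58 in size and an adjusted p not over 0.05. Standard errors are the log2 fold change over the square root of F. The step was tested on simulated data for Ly6glow against Ly6ghigh over 14108 genes, where 200 of 200 changed genes were recovered. FPKM were not used in count tests, and limma 3.58.1 on log2(FPKM + 1) and DESeq2 1.42.0 were alternatives. Total-count scaling and the length offset were chosen after the data were seen.

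Nothing states that the libraries of a group came from separate mice, so p-values measure only the spread between these libraries, which may be technical. The members, gene lists and alternatives were chosen with earlier results of these data known. Members were named by a rule of largest changes and highest levels per complex, and the assembly factors, core subunits, isoforms and list genes outside it after their values were seen.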

Additional observations from a re-analysis of the deposited data

How the results depend on the processing

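The number of members called moved with the scale, the length offset and the fold threshold. The shares of all genes called moved too, and those for total-count scaling and the length offset are given above. In Ly6ghigh against NL 19.6% of all genes were called higher with upper-quartile normalization, and 8.36%, 10.6% and 12.1% in the limma fits named below. In those limma fits 37.7%, 51.6% and 49.5% were called lower in Ly6glow against NL, and 11.2%, 21.0% and 16.1% against Ly6ghigh. In Ly6ghigh against NL, members called higher numbered 32 with upper-quartile normalization, 11 with total-count scaling, 21 with the length offset, 13 at a fold threshold of 1, and 10, 12 and 10 in limma on log2(FPKM + 1), on log2(FPKM + 0.1) and with FPKM of at least 1. Members called lower there numbered 2 with at least 10 counts in every library, 15 with total-count scaling, 11 without a fold threshold, and 14, 16 and 14 in the same limma fits. In Ly6glow against NL, 16 were called higher with upper-quartile normalization, 17 with at least 10 counts, 46 without a fold threshold, 6 at a threshold of 1, and 0 with total-count scaling and in each limma fit. Members called lower there numbered 40 with total-count scaling, 28 without a threshold, 11 at a threshold of 1, and 38, 43 and 37 in limma. In Ly6glow against Ly6ghigh, 2 were called higher with the length offset, 5 without a threshold, and 0 at a threshold of 1, with total-count scaling and in each limma fit. Members called lower numbered 53 with total-count scaling, 11 with the length offset, 63 without a threshold, 6 at a threshold of 1, and 51, 54 and 51 in limma. DESeq2 and DESeq2 size factors gave counts within 1.5 times the reported ones.

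The members' median in Ly6glow against NL turned to -0.46, -0.51 and -0.46 in the limma fits and -0.46 with total-count scaling. Single values turned in the same comparison: Atp5k to -0.045, -0.047 and -0.045 in limma, -0.05 with total-count scaling and -0.024 with the length offset, Cox6b1 to -0.083, -0.084 and -0.083 in limma and -0.083 with total-count scaling, and Sdhb to -0.058, -0.059 and -0.058 in limma and -0.059 with total-count scaling. FPKM and total-count scaling divide by all reads of a library, and the cause of the other changes was not tested.

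Leaving out 1 library gave 48 to 50 members higher and 6 to 6 lower in Ly6ghigh against NL, 28 to 31 and 16 to 17 in Ly6glow against NL, and 0 to 1 and 22 to 30 in Ly6glow against Ly6ghigh. Replicate numbers did not pair the libraries, with correlations of deviations from -0.07 to 0.08, and the replicate block gave 49 higher and 6 lower, 31 and 17, and 1 and 24. Members at a few counts, such as Ndufa4l2, Cox6b2 and Ndufaf5, are limited by depth, and Ndufb4c shares sequence with Ndufb4.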
